A study of Mus musculus with 6 samples.

Results

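The Janus kinases (JAKs) and signal transducer and activator of transcription factors (STATs) described here are 9 genes: Jak1, Jak2, Jak3, Tyk2, Stat3, Stat4, Stat5a, Stat5b and Stat6. They were taken by gene symbol from a deposited table of 48709 mouse genes, and all 9 were found. The RNA came from resting invariant natural killer T (iNKT) cells, lymphocytes specific for lipid antigens on CD1d, sorted from the spleens of mice labelled WT (3 samples) or Gpx4 cKO (3 samples), a conditional knockout of the gene for the lipid peroxidase GPX4. The labels set the 2 genotypes against each other. The table holds 6 libraries with the numbers 18 to 23, and these names could not be tied to any label. Each is therefore reported by its number, with values listed in the order 18, 19, 20, 21, 22, 23, and no comparison of genotypes was made. The sources used here do not give the promoter driving the deletion, the age of the mice, or whether samples came from separate animals or pools.

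Cytokine receptors of this class have no kinase activity of their own. Each signalling chain carries a Janus kinase, and ligand binding brings the kinases together, after which they phosphorylate the receptor and the STAT proteins that dock there. STAT dimers then move to the nucleus and activate transcription. In iNKT cells, interleukin-15 and interleukin-7 sustain survival through JAK1, JAK3 and STAT5, interleukin-12 drives interferon-gamma through JAK2, TYK2 and STAT4, and interleukin-4 acts through STAT6.

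Exon reads ranged from 903524 in library 21 to 10122187 in library 19, with 1916746 in library 23 and between 5406110 and 8020374 in the others. Precision was therefore lowest in library 21, where a count of 0 allows up to 3.62 CPM (reads scaled to 1000000 effective exon reads). The lowest Gpx4 level was 3.20 CPM, in library 19, and the highest 31.3 CPM, in library 20. All 8 iNKT and T cell markers were present, with summed levels from 3793 to 5155 CPM. The 10 B cell markers summed to 1029 CPM in library 18, 2010 CPM in library 19 and 4030 to 5322 CPM in the other 4, mostly the immunoglobulin gene Igkc. The 9 myeloid and dendritic cell markers in the table summed to at most 98.6 CPM, mainly Cst3, with S100a8 at 0 in every library. The 5 erythroid markers summed to 3.98 to 280 CPM and the 5 stromal and endothelial markers to 91.1 to 129 CPM, mainly Pecam1, with Col3a1 at 0. In such bulk libraries, fewer cells of a type and less RNA per cell cannot be told apart. B cells also use JAK and STAT genes, and the part of other cells in the values below was not tested.

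All 9 genes were read in every library, and in CPM the summed levels of the kinases and of the STATs varied little. The sum of the 4 kinases lay between 1389 CPM (library 21) and 1643 CPM (library 22), a ratio of 1.18. That of the 5 STAT genes lay between 689 CPM (library 19) and 755 CPM (library 21), a ratio of 1.10. Most single genes varied more than these sums. The ratio of the highest to the lowest library was 1.09 for Stat6, 1.18 for Jak1, 1.24 for Stat3, 1.29 for Tyk2, 1.44 for Jak2, 1.61 for Stat4, 1.63 for Jak3, 1.65 for Stat5a and 2.06 for Stat5b. The median of these ratios was 1.44, against 1.58 over the 9042 genes with at least 200 exon reads. Among tested genes with at least as many reads as Stat5a, the member with fewest, the median was 1.39. Each gene's counts were set against the effective library sizes by a chi-square test with Benjamini-Hochberg adjustment over the 9042 genes. At an adjusted p below 0.05, 7 of the 9 members varied beyond counting error, and Tyk2 and Stat6 did not pass. Over all tested genes 71.6% passed, so the members' count lies near the background. Copies made by PCR are not independent molecules, so the test and all 95% intervals cover counting error only. The intervals of ratios treat the highest and lowest library as fixed beforehand, although they were picked from these values, so they are too narrow for the spread.

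**Figure D1:**
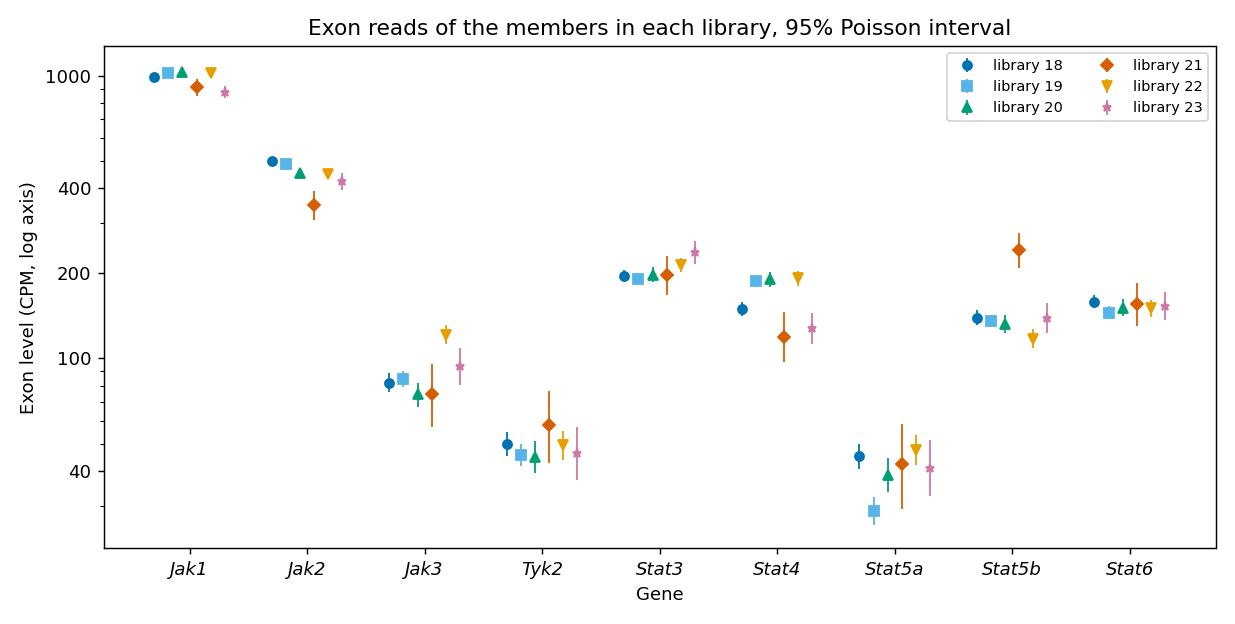
Exon levels of the 9 genes in CPM on a log axis, one symbol per library, with 95% exact Poisson intervals. Stat5b stands above the other libraries in library 21, at 241 CPM, and Jak3 in library 22, at 121 CPM, while the values of Stat6 lie between 145 and 159 CPM.

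Jak1, which serves the common gamma chain, gp130 and interferon receptors, was the most abundant member. The gene (ENSMUSG00000028530) spans bases 101152367 to 101265282 of chromosome 4, minus strand, in GRCm38, the build of all coordinates given here. Its level was 988, 1018, 1030, 909, 1024 and 875 CPM in libraries 18 to 23. Libraries 18, 19, 20 and 22 thus lay close together, and the 2 shallowest libraries were lower. The 95% Poisson interval of library 23, 833 to 918 CPM, overlapped only that of library 21, 845 to 976 CPM. The spread of 1.18-fold (95% interval 1.11 to 1.24) passed the chi-square test (adjusted p = 9.97e-09), which at 32643 reads detects differences of small size.

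Jak2, the kinase of the interferon-gamma receptor and of the interleukin-12 receptor beta 2 chain, lies on chromosome 19 at 29251828 to 29313080 on the plus strand (ENSMUSG00000024789). It was measured at 500, 487, 452, 348, 448 and 422 CPM in libraries 18 to 23. Library 21 was the lowest, and its interval of 309 to 390 CPM, from 288 reads, lay below those of the other 5 libraries. The chi-square test gave an adjusted p of 2.99e-12. Leaving out library 21 gave a ratio of 1.19 in place of 1.44. Among all tested genes, 18.7% lay at least as far below their own median in library 21.

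Jak3 encodes the kinase bound to the common gamma chain, which passes on the signals of interleukin-2, interleukin-7 and interleukin-15. The gene lies on chromosome 8 at 71676296 to 71690575 on the plus strand (ENSMUSG00000031805). Its level was 82.0, 84.4, 74.5, 74.8, 121 and 93.8 CPM in libraries 18 to 23. Library 22 stood alone, with an interval of 112 to 131 CPM that overlapped no other. The ratio of 1.63 (95% interval 1.44 to 1.85, adjusted p = 3.85e-16, chi-square test) was 1.26 without library 22, and Jak3 then no longer passed the test. Of all tested genes, 1.77% exceeded their median in library 22 by at least the 1.46-fold seen for Jak3.

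Tyk2, the kinase of the type I interferon receptor and of the shared interleukin-12 receptor beta 1 chain, lies on chromosome 9 at 21104069 to 21127346 on the minus strand (ENSMUSG00000032175). It held 50.0, 45.7, 44.9, 57.9, 49.3 and 46.4 CPM in libraries 18 to 23. All 6 intervals overlapped, and the spread did not pass the chi-square test (adjusted p = 0.454). With 48 reads in library 21, the ratio of 1.29 had a 95% interval of 0.926 to 1.76.

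Stat4, the factor activated by interleukin-12, lies on chromosome 1 at 51987148 to 52107189 on the plus strand (ENSMUSG00000062939). Its exon level was 150, 187, 191, 119, 192 and 128 CPM in libraries 18 to 23. Libraries 19, 20 and 22 were high and nearly equal, library 18 lay between, and libraries 21 and 23 were lowest. The intervals of libraries 21 (97.1 to 145 CPM) and 23 (112 to 145 CPM) lay below those of libraries 19, 20 and 22, the lowest of which began at 179 CPM. The spread was 1.61-fold (95% interval 1.31 to 2.0, adjusted p = 3.39e-18, chi-square test). Its intron reads were lowest in the same 2 libraries. On the scale of intron CPM, reads per 1000000 intron reads of the library, they stood at 856, 869, 724, 486, 816 and 552 in libraries 18 to 23. The intron intervals of libraries 21 (440 to 536) and 23 (517 to 587) lay below those of the other 4, the lowest of which began at 702. These 2 libraries were also the shallowest and had the largest share of mitochondrial reads, 4.99% and 4.15% against 3.36% to 3.62% in the others. Their iNKT and T cell markers summed to 3872 and 3793 CPM, close to the 3879 CPM of library 20 and below the 4420 to 5155 CPM of the rest. The part of these differences in the Stat4 values was not tested.

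Stat3, which answers interleukin-6, interleukin-10, interleukin-21 and interleukin-23, had the highest exon count among the STAT members. It lies on chromosome 11 at 100885098 to 100939540 on the minus strand (ENSMUSG00000004040). The gene held 196, 192, 198, 197, 214 and 238 CPM in libraries 18 to 23. Library 23 was the highest, and its interval of 216 to 261 CPM lay above those of libraries 18, 19 and 20. The adjusted p of the chi-square test was 0.000583, and Stat3 did not pass without library 23, where the ratio was 1.12 in place of 1.24.

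Stat6, the factor of interleukin-4 and interleukin-13, had the smallest exon spread of the members. On chromosome 10 at 127642986 to 127660957, plus strand (ENSMUSG00000002147), it was read at 159, 145, 151, 156, 151 and 153 CPM in libraries 18 to 23. This spread of 1.09-fold did not pass the chi-square test (adjusted p = 0.36), and its 95% interval reached 1.18-fold. Only 0.487% of tested genes had a smaller ratio.

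Stat5a and Stat5b encode closely related factors that answer interleukin-2, interleukin-7 and interleukin-15 and maintain transcription of survival genes. The genes are neighbours of Stat3 on chromosome 11. Stat5b occupies 100780731 to 100850724 on the minus strand (ENSMUSG00000020919), Stat5a 100859351 to 100885169 on the plus strand (ENSMUSG00000004043), with 8626 bases between them, and the 3′ ends of Stat5a and Stat3 overlap by 72 bases on opposite strands. In GENCODE M21 transcripts of GRCm38, the longest coding sequences of Stat5a (2391 bases without the stop codon) and Stat5b (2358 bases) were identical at 90.8% of 2291 aligned positions. How reads are split between these genes depends on such stretches, so the start of the longest identical run and the window with most differences are shown. The identical run of 324 bases spans coding bases 571 to 894 of both genes, counted from the A of the start codon, and its first 120 bases are:

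Stat5a and Stat5b, shared run: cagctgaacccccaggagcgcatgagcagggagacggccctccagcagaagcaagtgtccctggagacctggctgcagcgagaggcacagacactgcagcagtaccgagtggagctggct

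The window of 60 bases with the most differences, coding bases 85 to 144 in both genes, held 19, which are set in capitals:

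Stat5a: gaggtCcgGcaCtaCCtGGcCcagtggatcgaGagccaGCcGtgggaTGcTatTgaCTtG
Stat5b: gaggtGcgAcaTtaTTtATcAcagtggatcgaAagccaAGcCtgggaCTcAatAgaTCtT

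A read that lies wholly inside an identical run cannot be placed in one gene by its sequence, whereas a read that covers differing bases, as in the second window, can. The table counts how many exon reads matched 1 place only, and these made up 97.5% of the 1264 Stat5a reads and 98.3% of the 4428 Stat5b reads.

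Stat5b was the more abundant of the pair in every library and had the widest exon spread of the 9 genes, though not without library 21 or by the authors' RPKM, where Jak3 was wider (1.93 against 1.92). It was read at 140, 136, 133, 241, 117 and 139 CPM in libraries 18 to 23. Library 21 stood alone, with an interval of 209 to 277 CPM from 200 reads, while the highest interval among the other 5 ended at 157 CPM. The ratio of highest to lowest was 2.06 (95% interval 1.74 to 2.41, adjusted p = 1.85e-15, chi-square test) and 1.19 without library 21. Each of the 200 reads in library 21 matched 1 place only. Among all tested genes, 4.55% exceeded their own median in library 21 by at least the 1.76-fold of Stat5b. The intron reads of Stat5b did not share this excess. They numbered 387, 283, 287, 312, 274 and 255 intron CPM in libraries 18 to 23, so that library 18 was highest and library 21 stood at 1.10 times the median. Without library 18 these intron reads did not pass the chi-square test.

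Stat5a was the least abundant member per length. Its level was 45.1, 28.8, 38.7, 42.2, 47.6 and 41.1 CPM in libraries 18 to 23. The lowest value was in library 19, the deepest, with 306 reads and an interval of 25.7 to 32.2 CPM that overlapped only the wide interval of library 21 (29.4 to 58.7 CPM). The ratio was 1.65 (95% interval 1.40 to 1.96, adjusted p = 2.64e-08, chi-square test) and 1.23 without library 19, in which case Stat5a did not pass. Intron reads of Stat5a were also lowest in library 19, at 28.4 intron CPM, and highest in library 20, at 49.4. Of the reads on the pair, Stat5a took 24.4%, 17.5%, 22.6%, 14.9%, 28.9% and 22.8% in libraries 18 to 23. The low share in library 19 went with a low Stat5a level, and the low share in library 21 with a high Stat5b level. The exact binomial interval of library 22, 25.9% to 32.0%, lay above those of libraries 19 (15.8% to 19.4%) and 21 (10.6% to 20.1%). Such a share within a library does not depend on how the libraries are scaled.

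**Figure D2:**
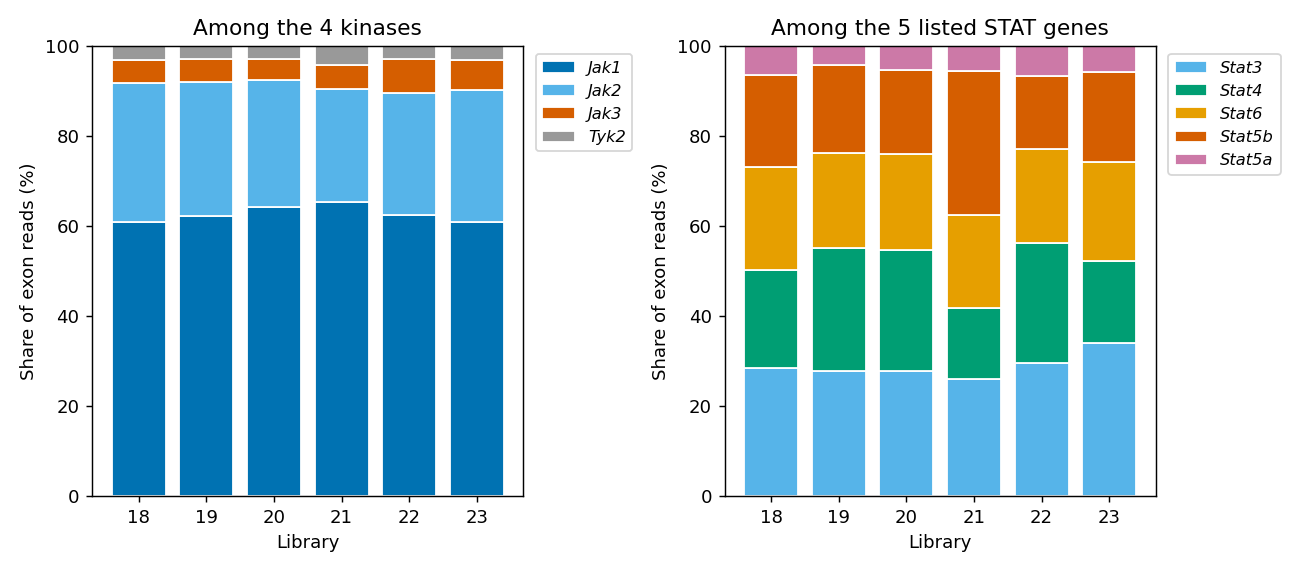
Share of exon reads in percent taken by each gene among the 4 kinases (left) and among the 5 STAT members (right) in each library. Jak1 holds 60.9% to 65.4% of kinase reads in every library, while among the STAT members the share of Stat5b reaches 31.9% in library 21 and that of Stat4 falls to 15.8% there.

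Within the kinase group, Jak1 took 60.9% to 65.4% of exon reads, Jak2 25.02% to 30.9%, Jak3 4.65% to 7.38% and Tyk2 2.79% to 4.17%. Jak2 was lowest in library 21, where its exact binomial interval was 22.5% to 27.6%, and Jak3 was highest in library 22, with an interval of 6.85% to 7.94%. Among the reads of the 5 STAT members, Stat3 took 26.0% to 34.0%, Stat4 15.8% to 27.2%, Stat6 20.6% to 23.04%, Stat5b 16.2% to 31.9% and Stat5a 4.18% to 6.59%. Library 21 combined the lowest Stat4 share with the highest Stat5b share. In library 23 Stat4 was also low, at 18.3%, but there Stat3 was highest, at 34.0%, and Stat5b stayed at 19.9%.

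Levels of different genes were compared per length, with the authors' RPKM (reads per kilobase of exon and 1000000 reads). The median over the libraries was 62.0 RPKM for Jak1, 41.0 for Jak2, 19.4 for Stat4, 16.3 for Stat6, 11.7 for Stat5b, 9.96 for Stat3, 7.62 for Jak3, 5.07 for Tyk2 and 2.61 RPKM for Stat5a. Jak1 exceeded Jak2 in all 6 libraries, by a median of 1.52-fold, and Jak2 exceeded Stat4, by 2.12-fold, with no overlap of the ranges in either case. Tyk2 and Stat5a held the last places in each library, also without overlap with their neighbours. From Stat4 to Jak3 the ranges of neighbours overlapped. Stat4 led Stat6 in 4 libraries and lay below it in libraries 21 and 23, Stat6 led Stat5b in 5 libraries and not in library 21, and both Stat5b over Stat3 and Stat3 over Jak3 held in 5 libraries and not in library 22. The lead of Stat4 rests on all exon reads, of which 82.1% for Stat4 and 100% for Stat6 matched 1 place only. In library 18, for example, Stat4 stood at 18.4 RPKM with 83.3% such reads, and Stat6 at 17.1 RPKM. Of the 36 pairs of members, 30 kept the same order in every library. Per length, Stat5b exceeded Stat5a by 3.17-fold in library 22 to 7.36-fold in library 21, and Jak1 exceeded Jak3 by 6.26-fold in library 22 to 10.2-fold in library 20.

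**Figure D3:**
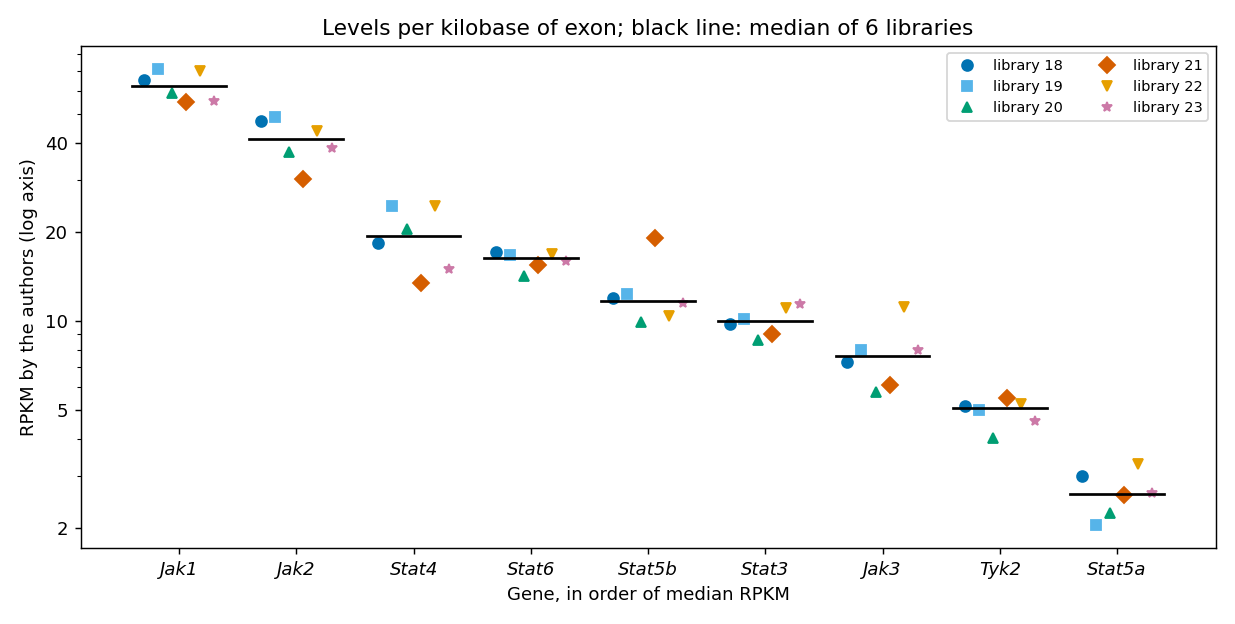
Levels per kilobase of exon, in the authors' RPKM on a log axis, with genes in order of their median (black line) and one symbol per library. Jak1 and Jak2 lie above, and Tyk2 and Stat5a below, all other members in every library, while the ranges of neighbours among the 5 genes between them overlap.

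Reads on introns come in part from RNA not yet spliced, and the median of their share ran from 26.4% to 80.4% across the members. Over all genes, introns took 46.8% to 52.1% of the reads on genes. Stat4 had the largest share, a median of 80.4% (78.8% to 84.6%), followed by Stat5b with 66.1% (56.7% to 72.7%), Jak1 with 53.6%, Tyk2 with 53.2%, Stat3 with 49.9%, Jak2 with 46.8% and Stat5a with 46.3%. Jak3 had a median of 30.7% and Stat6 of 26.4%. The gene models of Jak3 (14280 bases) and Stat6 (17972 bases) are the shortest of the 9 and that of Stat4 (120042 bases) the longest. Scaled to intron length, the order was another. Jak1 held a median of 10.8 intron CPM per kilobase of intron, Jak2 8.10, Stat4 6.62, Stat3 4.62, Jak3 4.56, Stat5b 4.42, Stat6 4.28, Tyk2 3.25 and Stat5a 1.97. At both ends this resembles the order of exon levels, with Jak1 and Jak2 first and Tyk2 and Stat5a last.

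**Figure D4:**
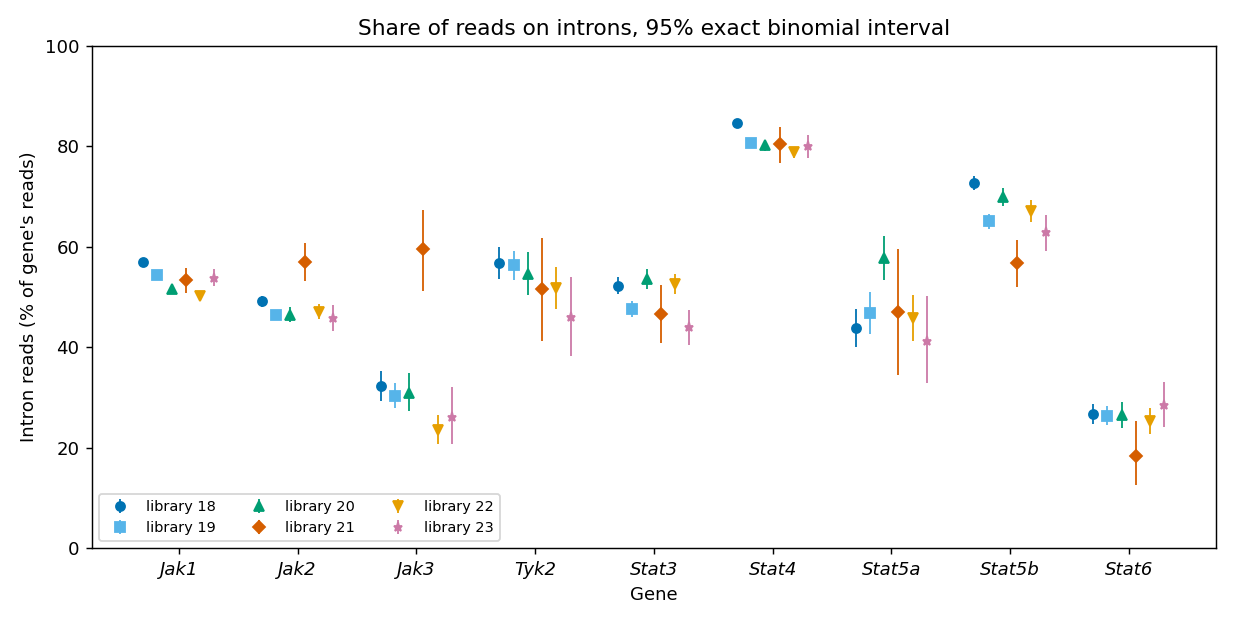
Intron reads as a percentage of each gene's exon and intron reads, one symbol per library, with 95% exact binomial intervals. Stat4 lies between 78.8% and 84.6%, Stat6 between 18.4% and 28.5%, and Jak3 reaches 59.5% in library 21 against at most 32.2% in the other libraries.

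Intron reads were tested like exon reads, against each library's total of intron reads, over the 9221 genes with at least 200 of them. All 9 members varied beyond counting error, against 87.1% of all genes tested, again close to the background. The median ratio of highest to lowest was 1.60 over the members and 1.97 over all genes tested. These groups were not matched for read number. For exons the median was 1.58 over all tested genes and 1.39 over those with at least as many reads as Stat5a. No such subset was taken for introns, so whether the members' introns varied less than those of similar depth was not tested. Jak3 had the widest intron spread. Its introns held 40.5, 41.0, 31.2, 108, 42.5 and 35.9 intron CPM in libraries 18 to 23. Library 21, with 91 intron reads, was 3.48 times the lowest (95% interval 2.68 to 4.50), and without it the ratio was 1.36. In the same library the exon level of Jak3 was among the lowest, so the intron share of the gene was 59.5% there (51.3% to 67.3%) and 23.5% to 32.2% elsewhere. Of all genes tested, 2.32% had an intron excess at least as large in library 21, which has the fewest reads. The high exon level of Jak3 in library 22 had no counterpart in its introns, which were 1.04 times their median there.

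Jak2 also had its largest intron share in library 21. Its exon level was lowest there, its introns at 456 intron CPM equalled their median, and the share of 57.1% (53.2% to 60.9%) lay above the 45.8% to 49.2% of the other libraries. Stat5b differed in the opposite way, with its lowest intron share, 56.7% (52.1% to 61.3%), in library 21. Intron reads of Jak1 were highest in libraries 18 and 19, at 1354 and 1356 intron CPM, against 1021 to 1179 in the others, whereas exon levels in libraries 20 and 22 matched those of libraries 18 and 19. Intron reads of Stat6 were lowest in library 21, at 34.6 intron CPM from 29 reads, and between 50.8 and 66.2 elsewhere (adjusted p = 0.0108, chi-square test). Without library 21 Stat6 did not pass the intron test. Intron reads of Tyk2 ranged from 42.8 to 68.2 intron CPM (adjusted p = 2.14e-05, chi-square test), and those of Stat3 from 169 to 271 intron CPM, highest in library 22. Stat4 was the one member for which both kinds of reads were lowest in the same 2 libraries.

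**Figure D5:**
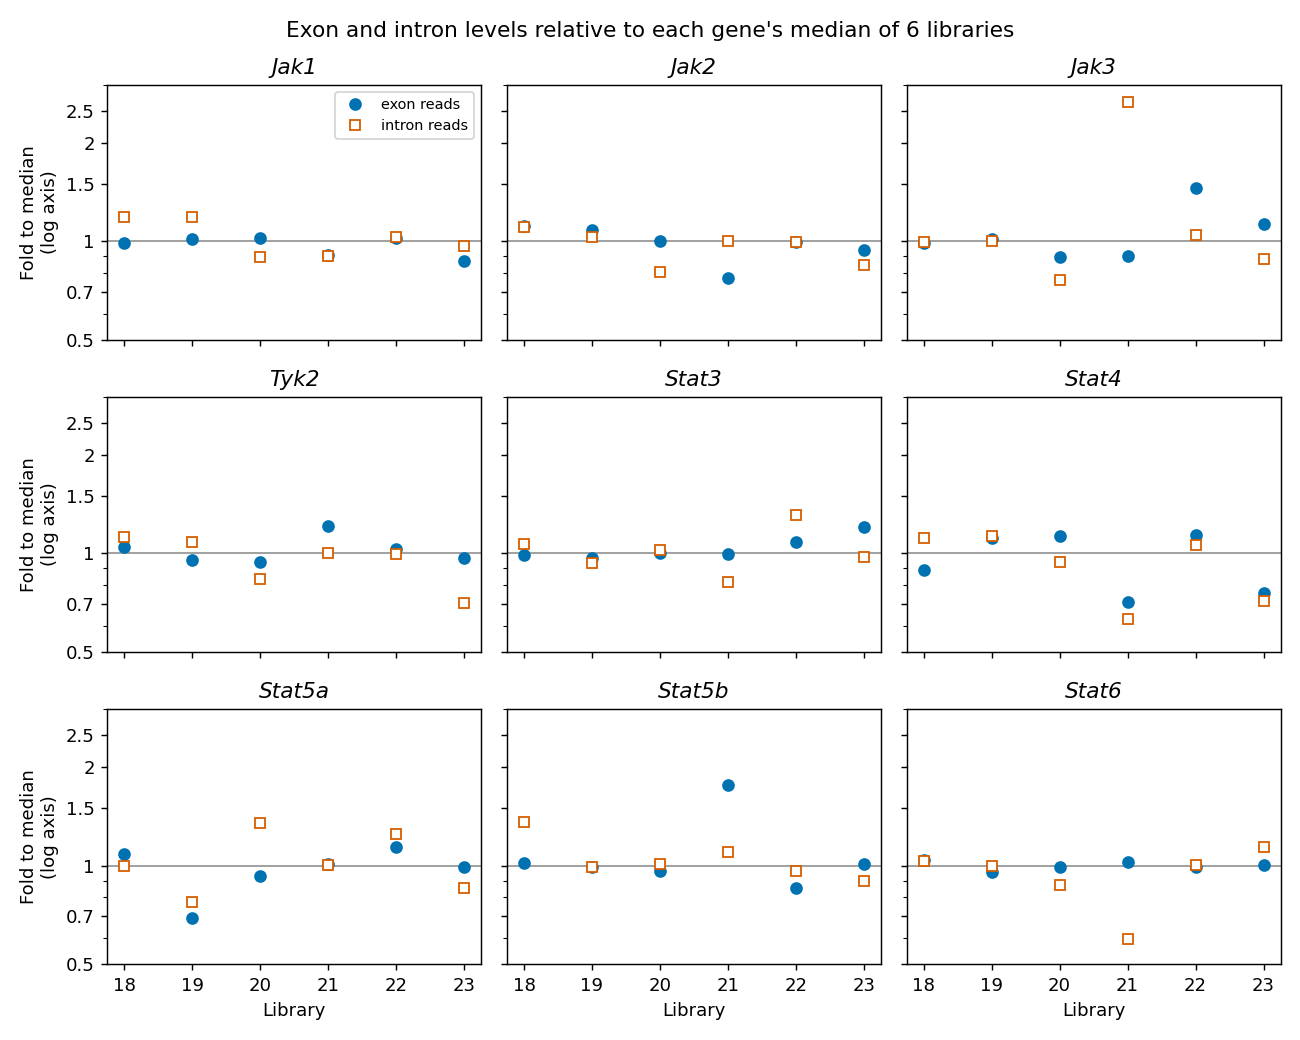
Exon level (filled circles) and intron level (open squares) of each gene in each library, divided by the gene's median over the 6 libraries, on a log axis. Both measures of Stat4 are low in libraries 21 and 23, whereas in library 21 the exon level of Stat5b is 1.76 times and the intron level of Jak3 2.66 times the median.

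Reads over exon junctions made up 47.3% to 49.3% of all exon reads. The members lay at or above this, with medians of 74.3% for Stat4, 72.5% for Jak3, 63.4% for Jak2, 58.9% for Stat5a, 58.8% for Jak1, 58.2% for Stat3, 54.0% for Stat6, 53.0% for Stat5b and 50.4% for Tyk2. Stat4 thus had both the largest share of junction reads among its exon reads and the largest share of intron reads. Stat5b in library 21 had 47.0%, its lowest value, and otherwise 49.2% to 56.3%.

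Overlapping gene models touch several members. In GENCODE M21, 8 of the 9 have the start and end given in the table, and Tyk2 has a longer model there, with 6865 bases of exon against 4619 in the table. Stat4 shares 1033 of its 3872 exon bases with Gm28177, a gene model on the same strand, and 82.1% of its 5666 reads matched 1 place only. Jak3 shares 404 exon bases with Insl3 on the same strand, and 94.7% of its reads matched 1 place only. Every read of Jak1, Jak2, Tyk2, Stat3 and Stat6 did so. On the opposite strand, Stat3 and Stat5a share 72 exon bases, Tyk2 and 1700084C06Rik 554, Stat6 and Nab2 40, and Jak1 and Raver2 4. The sources used here do not say whether counting used strand, so reads in these overlaps cannot be assigned with certainty. Counting only reads with 1 match, the ratio was 1.56 for Stat4 and 2.11 for Stat5b, and the same 7 members passed the chi-square test.

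Stat2, a factor of the type I interferon response, ranged from 36.2 to 57.9 CPM (adjusted p = 0.047, chi-square test). Of 24 chains of cytokine receptors that signal through Janus kinases, 18 had enough reads for the test and 17 varied beyond counting error, with a median ratio of 1.83, against 71.6% and 1.58 over all tested genes. The most abundant were Il7r, the interleukin-7 receptor chain (873 to 1297 CPM), Il2rb, the JAK1-bound chain for interleukin-2 and interleukin-15 (724 to 1376 CPM, highest in library 19), and Ifngr1, the ligand-binding chain for interferon-gamma (311 to 763 CPM, highest in library 23). Il6ra, which brings interleukin-6 to a STAT3 receptor, had the widest spread of the 18 tested chains, with 19.2 CPM in library 19, 68.8 CPM in library 21 and a ratio of 3.58.

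Inhibitors of the pathway numbered 19, all tested, of which 14 varied beyond counting error, with a median ratio of 1.57, both close to the 71.6% and 1.58 over all tested genes. Ptprc, the gene for the phosphatase CD45, was by far the most abundant, at 2098 to 3819 CPM with the highest value in library 20. Ptpn11, a phosphatase gene, ranged from 122 to 176 CPM, and Ptpn2, whose product removes phosphate from JAK1, JAK3 and STAT proteins, from 92.9 to 145 CPM. Pias3, which encodes an inhibitor of STAT3, had the widest spread of the list, between 14.3 CPM in library 19 and 3.62 CPM, or 3 reads, in library 21. Of 23 genes often induced by STAT factors, 22 were tested and all 22 varied, with a median ratio of 2.08, beside the same 71.6% and 1.58. Ccnd2, a cyclin gene, ranged from 1079 to 1281 CPM, the anti-apoptotic gene Bcl2 from 186 to 384 CPM, and Il2ra, the interleukin-2 receptor alpha chain gene, from 165 to 351 CPM. Il2ra was also listed among the receptor chains, and Cish, Socs1, Socs2 and Socs3 among the inhibitors, so these lists are not separate. Bcl2 and Il2ra were both lowest in library 18 and highest in library 23. Gzmb, the granzyme B gene, had the widest spread of this list, with 74.8 and 72.2 CPM in libraries 21 and 23 and 5.09 to 15.9 CPM in the others. The 9 members, with a median ratio of 1.44 in CPM, varied less in size on that scale than the receptor chains and the induced genes, a difference that was not tested. The lists were not matched to the members for read number. They hold tested genes with medians as low as those of Crlf2 (7.95 CPM) and Prf1 (11.2 CPM), whereas the lowest median of a member was 41.7 CPM, for Stat5a. Among tested genes with at least as many reads as Stat5a the median ratio was 1.39.

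For the 3 members with the widest spread, the genes with the most similar profile were sought among 6297 genes of at least 20 CPM on average. Likeness was the root mean square difference of log2 CPM over the 6 libraries, each profile centred on its own mean. The nearest to Stat5b were Trim44 (0.0551), Gigyf2 (0.0668) and Uxt (0.0705), against a median of 0.379 over the genes compared. Trim44 held 211 CPM in library 21 and 108 to 124 CPM elsewhere. The nearest to Stat5a were the ribosomal protein genes Rps21 (0.0581), Rpl36a (0.0621) and Rps2 (0.0626). Jak3 lay nearest to the chemokine gene Ccl5 (0.0758), Atp6ap2 (0.0766) and Scp2 (0.0919). Ccl5 held 512 CPM in library 22 and 302 to 375 CPM elsewhere. These genes were picked for their likeness, so a shared high or low library is part of the choice and no test of it was made.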

How the data were processed

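Splenic iNKT cell RNA was read in 6 libraries, of which 0 could be matched to a label by name, so the planned comparison of genotypes by edgeR's quasi-likelihood test was not run. The submitters' processing notes list GRCm38 and mm10 as builds. The sources used here do not give the aligner, the annotation or the use of strand. Per the file headers, the deposited exon read counts are whole and not normalized. The authors' RPKM use exon length and a library total that exceeds the reads on genes. The deposited fraction of intron reads, with the columns of intron, junction and uniquely placed reads, was used as given. The table held 10 further columns of values, which were not used.

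CPM used TMM factors (0.917 to 1.05) from edgeR 4.0.16 in R 4.3.3 on 9510 genes kept by filterByExpr. The chi-square tests (scipy 1.17.1, 5 degrees of freedom, at least 200 reads, Benjamini-Hochberg threshold 0.05) ran on all genes. They were also run on simulated Poisson counts in which 200 genes were raised 2-fold in a single library. Of these, 88.5% (exon) and 91% (intron) were called, with 7 and 3 unchanged genes. Such counts hold counting error only, so they cannot show how the tests behave under any other variance. Poisson and binomial intervals were exact, at 95%. A count of 0 was taken to allow up to 3 reads. Alternatives included DESeq2 1.42.0 size factors. The members and gene lists were chosen with earlier results of these data known. The 9 members were all named. In each pathway list the 3 genes with the highest median CPM and the gene with the widest ratio were named, and the 3 nearest profiles for each of 3 members. One listed gene is not reported here.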

Additional observations from a re-analysis of the deposited data

How the results depend on the processing

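The count of 7 members with exon levels varying beyond counting error was also 7 with DESeq2 size factors, with no normalization factor, with a minimum of 10 reads, with the genes kept by filterByExpr and with uniquely placed reads. Leaving out each library in turn gave 6 to 7, and the calls lost were Stat5a without library 19, Jak3 without library 22 and Stat3 without library 23. For intron reads the count was 8 to 9 when a library was left out (Stat5b lost without library 18, Stat6 without library 21) and 8 with exon-based library sizes, where Stat6 did not pass. The share of all tested genes that passed is given for the main settings only, so the counts under alternatives are not set against a background. The median ratio of highest to lowest exon level, 1.44, became 1.19 without library 21, and the leave-one-out range was 1.19 to 1.44. It was 1.58 with no normalization factor and 1.61 from the authors' RPKM. The median ratios over all tested genes and over the pathway lists were taken with TMM factors only, so these higher values have no such comparison. Of 90 ratios of single members under alternatives, 9 lay outside the member's own 95% interval, which takes the extreme libraries as fixed. Besides the values without 1 library given with each gene, these were Jak1 with no normalization factor (1.28) and, from the authors' RPKM, Jak1 (1.30), Jak3 (1.93) and Stat6 (1.20). The alternatives for order and for shares were chosen after the data were seen. They gave 30 to 33 of 36 pairs in the same order, 31 with uniquely placed reads, and a spread of the Stat5a share of 9.52 to 14.0 percentage points, 13.6 with uniquely placed reads. No paired analysis was possible because the libraries carry none of the replicate numbers of the labels, and the genotype alternatives were not run for the same reason. Depth limits library 21 most, where members had 35 to 753 exon reads.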
